A study of Rattus norvegicus with 6 samples.

Results

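Sodium-potassium and calcium pumps are membrane ATPases that spend ATP to hold the ion gradients of a cell. They were followed here as 7 genes chosen by symbol from the 17048 rows of each count table: the Na,K-ATPase beta subunits Atp1b1, Atp1b2 and Atp1b3, the endoplasmic reticulum calcium ATPase Atp2a2, and the plasma membrane calcium ATPases Atp2b1, Atp2b2 and Atp2b4. Of these 7 genes, 6 had a count in at least 1 library, and these same 6 passed the filter on low counts that left 7729 rows to test. The RNA came from wild-type (WT) neural stem/progenitor cells of the rat, kept for 24 h in a medium that holds them undifferentiated, on carbon films of High, Medium or Low electrical conductivity. There were 2 libraries per film, 6 in all, and every group shared the cell type, the genotype, the medium and the time, so the film was the only labelled difference. The study used the films to ask how electrical conductivity, with other surface properties matched, acts on the fate of these cells. It placed Medium and Low in the range of native nerve tissue and High above it. Conductivity was set by how long the carbon was oxidized. The paper adjusted a poly-D-lysine coating by film to bring bound laminin to similar amounts. The cells were a primary culture expanded from embryonic rat telencephalon. No library came from cells on a non-conductive surface, and the labels do not say whether the libraries of a film came from separate cultures. The p-values below therefore measure the spread between these libraries, which may be technical.

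A Na,K-ATPase exports sodium and imports potassium, and it consists of a catalytic alpha subunit and a beta subunit that is needed for its folding and delivery to the cell surface. The beta 1 subunit, encoded by Atp1b1, also acts as an adhesion molecule between cells, and the beta 2 subunit, encoded by Atp1b2, is known in brain as an adhesion molecule on glia. Calcium leaves the cytosol through SERCA pumps such as Atp2a2, which fill the endoplasmic reticulum, and through plasma membrane pumps (PMCA), which are switched on by calcium-bound calmodulin. Atp2b1 and Atp2b4 are the widely expressed PMCA genes, whereas Atp2b2 is typical of neurons and sensory hair cells.

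The libraries were made with QuantSeq, which reads the 3′ end of each poly(A) transcript, so that a count stands for a transcript end and does not grow with transcript length. The 6 totals lay between 5124863 and 6213676 counts. Values are given as counts and as TMM-normalized CPM, which are counts brought to a common library size, with each library further scaled by the bulk of its genes. Markers of progenitors were read beside the labelled cell type. Of 8 such markers (Nes, Sox2, Vim, Pax6, Fabp7, Hes1, Hes5 and Sox9), 7 had counts and Hes5 was at 0 in all libraries. Having counts does not set progenitors apart, as 7 of 8 oligodendrocyte lineage and 6 of 8 neuronal markers also had counts. Many rows came and went between libraries of the same film, since 1420 rows on High, 2084 on Medium and 1408 on Low were at 0 in 1 library and at 50 or more counts in the other. Rows of ribosomal RNA held 25.9 and 38.3% of all counts on High, 7.17 and 12.8% on Medium, and 6.90 and 7.42% on Low.

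The 7 pump genes fell into an abundant and a sparse set. Ranked by mean CPM among the 7729 rows tested, Atp2b1 stood at 295, Atp1b1 at 488 and Atp1b3 at 1256, each with counts in all 6 libraries. Atp2a2 stood at 5615, Atp2b2 at 7200 and Atp1b2 at 7242, and each of these was at 0 in at least 1 library. Atp2b2 and Atp1b2 were the members just inside the low-count filter, and Atp2b4 was the member outside it.

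**Figure D1:**
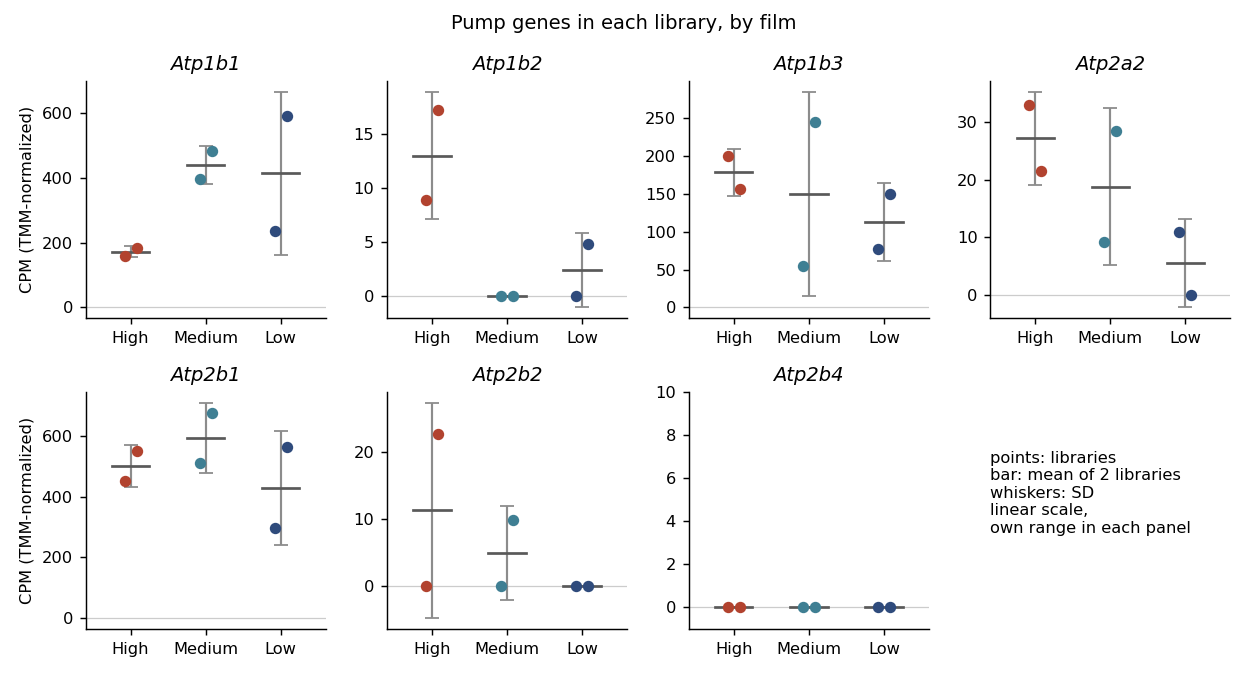
Each panel plots 1 pump gene, with the film on the x axis and TMM-normalized CPM on a linear y axis of its own range, and shows the 2 libraries of each film as points with their mean and SD. The 4 Atp1b1 points of Medium and Low sit between 236 and 591 CPM, above both High points at 159 and 183, while Atp2b4 is at 0 throughout.

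The beta 1 subunit Atp1b1 was the only one of the 6 tested pump genes with an unadjusted p under 0.05 in edgeR for any comparison, and its level was higher on Medium and Low than on High. Its counts were 772 and 768 on High, 2313 and 2934 on Medium, and 1631 and 3523 on Low. As levels, these were 159 and 183 CPM on High, 397 and 481 on Medium, and 236 and 591 on Low, so all 4 Medium and Low libraries lay above both High libraries. The film means were 171 ± 17.1 CPM on High, 439 ± 59.6 on Medium and 414 ± 251 on Low (SD, n = 2 each).

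The Low and Medium films, averaged with equal weight on the log2 scale, had 2.49-fold more Atp1b1 than High, a log2 fold change of 1.32 with an SE of 0.42 and a 95% interval from 0.39 to 2.25. Its unadjusted p was 0.0103 and its adjusted p was 0.686, by the quasi-likelihood test of edgeR, adjusted over all 7729 rows by the Benjamini-Hochberg method, so the difference did not pass the threshold of 0.05. The difference was 1.36 (SE 0.46) on the log2 scale for Medium against High, with an edgeR adjusted p of 0.875. It was 1.27 (SE 0.46) for Low against High, with an edgeR adjusted p of 0.899. These comparisons use the same High libraries. Low and Medium differed by -0.09 on the log2 scale, with an interval from -1.09 to 0.92 and an edgeR adjusted p of 1.0. The order of the Atp1b1 means was Medium, Low, High, and neither pair of neighbours differed past the adjusted threshold.

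The Atp1b1 call depended on the model and on 1 library. With DESeq2 the log2 fold change of the Low-Medium average over High was 1.25 and the adjusted p 0.0263. Without Low replicate 1, edgeR gave 1.57 and an adjusted p of 0.0297. Without Low replicate 2, the library with the highest Atp1b1 level, it gave 0.91 and an adjusted p of 0.776, and the difference of Low from High shrank from 1.27 to 0.47. Low then rested on 1 library that was assumed to vary like the other films.

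Summed markers of progenitors, astrocytes and the oligodendrocyte lineage were also lower in both High libraries than in the other 4, and their part in the Atp1b1 difference was not tested. The summed level of the progenitor markers was 3197 to 3461 CPM on High, 5478 to 5507 on Medium and 4570 to 6177 on Low. Of the progenitor markers tested, 4 of 7 lay higher in all 4 Medium and Low libraries, as did 8.06% of all rows. The same held for 1 of 3 astrocyte, 2 of 5 oligodendrocyte lineage and 0 of 3 neuronal markers tested. Of 6 astrocyte markers 4 had counts, with Aqp4 and Aldh1l1 at 0 in all libraries, and their sum was 232 to 246 CPM on High, 329 to 337 on Medium and 251 to 505 on Low. Of 8 markers of the oligodendrocyte lineage 7 had counts, with Sox10 at 0, and their sum was 352 to 439 CPM on High, 562 to 605 on Medium and 652 to 838 on Low. Of 8 neuronal markers 6 had counts, with Rbfox3 and Syt1 at 0, and their sum was 31.0 to 69.4 CPM on High, 27.1 to 147 on Medium and 140 to 202 on Low. Both Low libraries thus lay above both High libraries for neuronal markers too, while Medium overlapped with each film. Of 7 microglial markers 5 were at 0 and the sum did not exceed 7.10 CPM. Of 8 meningeal and vascular markers 5 were at 0, and their sum was 7.83 to 35.8 CPM on High, 0 to 338 on Medium and 0 to 0.168 on Low. In bulk RNA, fewer cells of a type and less RNA per cell cannot be told apart. With the ribosomal RNA rows left out, the log2 fold change of Atp1b1 was 1.31. That fit does not measure the quality of the RNA, whose part in the Atp1b1 difference was not tested.

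The beta 3 subunit Atp1b3, the partner of alpha subunits in many tissues, did not separate the films. It had 970 and 657 counts on High, 320 and 1496 on Medium, and 529 and 892 on Low. Its levels were 200 and 157 CPM on High, 54.9 and 245 on Medium, and 76.6 and 150 on Low, so that the lowest and the highest library were both on Medium. The means were 178 ± 30.5 CPM on High, 150 ± 135 on Medium and 113 ± 51.7 on Low (SD, n = 2 each). The Low-Medium average differed from High by -0.45 on the log2 scale (SE 0.66, edgeR adjusted p = 1.0), with an interval from -1.92 to 1.01. No neighbours in the order High, Medium, Low differed beyond their spread.

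The glial beta 2 subunit Atp1b2 was counted in 3 libraries. It had 43 and 72 counts on High, 0 in both Medium libraries, and 0 and 29 on Low. In CPM these were 8.86 and 17.2 on High and 4.87 in Low replicate 2, with High above all 4 other libraries. Taking 3 counts per library as the floor for a group at 0, the mean on High was 25.9-fold above that floor on Medium. The 0 counts do not bound the level there. On Medium, 2084 rows were at 0 in 1 library and at 50 or more counts in the other. The edgeR interval of Atp1b2 for Medium against High ran from -21.04 to 2.64 on the log2 scale, so it included no difference. The fitted log2 difference of Low and Medium from High was -5.80 with an SE of 3.34, and its edgeR adjusted p was 0.801. It averages -2.41 for Low and -9.20 for Medium. With both Medium libraries at 0 counts, its size is not an estimate of a level. The 2.41 and 4.81% that Atp1b2 took of all beta counts on High compare with 0.653% in Low replicate 2. With the same floor, the 0 counts in the other 3 libraries would be shares of 0.114, 0.0677 and 0.139% for Medium replicates 1 and 2 and Low replicate 1.

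The make-up of the beta subunits was read within each library, where no scaling between libraries enters. Atp1b1 took 43.2% (Wilson 95% interval 41.0 to 45.6) and 51.3% (48.8 to 53.8) of the beta counts on High. It took 87.8% (86.5 to 89.0) and 66.2% (64.8 to 67.6) on Medium, and 75.5% (73.7 to 77.3) and 79.3% (78.1 to 80.4) on Low. The share was thus above that of both High libraries in all 4 others. It rests on the same Atp1b1 counts as the levels above, and how many other such shares separate the films was not counted. Atp1b3 held 54.3 and 43.9% on High, 12.2 and 33.8% on Medium, and 24.5 and 20.1% on Low. The intervals treat each count as an independent molecule and leave out the spread between libraries. The counts carry no molecular identifiers, so the intervals may be too narrow even for counting error. No test was run on the shares, as an exact permutation test of 4 libraries against 2 cannot go below a two-sided p of 0.133.

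**Figure D2:**
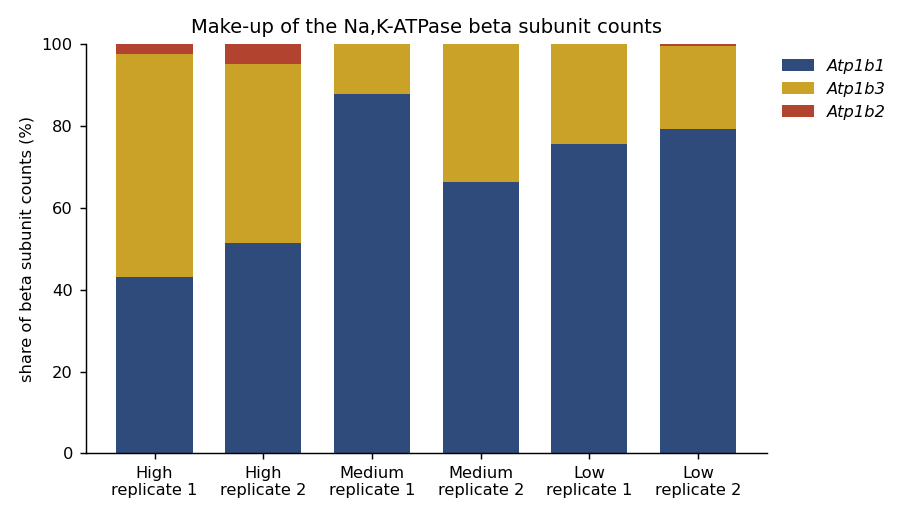
Stacked bars give the percent of the beta subunit counts taken by Atp1b1, Atp1b3 and Atp1b2 in each of the 6 libraries, 1 bar per library. Atp1b1 fills 43.2 and 51.3% of the High bars and at least 66.2% of the other 4.

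The 2 abundant beta genes were also set against each other in the same library. There were 0.796 and 1.17 Atp1b1 counts per Atp1b3 count on High, 7.23 and 1.96 on Medium, and 3.08 and 3.95 on Low. The ratio was above that of both High libraries in all 4 others. It uses the same Atp1b1 counts again, and how many other pairs of genes separate the films in this way was not counted. The ratio does not depend on the scaling between libraries, and no test was run on it.

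Among the plasma membrane calcium pumps, nearly all counts came from Atp2b1. It had 2194 and 2301 counts on High, 2980 and 4120 on Medium, and 2043 and 3348 on Low. As levels, these were 452 and 549 CPM on High, 511 and 676 on Medium, and 296 and 562 on Low, and the ranges of the films overlapped. The means were 500.5 ± 68.5 CPM on High, 594 ± 116 on Medium and 429 ± 188 on Low (SD, n = 2 each), and neighbours in this order did not differ beyond their spread. The Low-Medium average differed from High by 0.01 on the log2 scale (SE 0.32, edgeR adjusted p = 1.0). The 95% interval ran from -0.71 to 0.73.

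Atp2b2 was counted in 2 libraries of different films. It had 0 and 95 counts on High, 0 and 60 on Medium, and 0 in both Low libraries. As levels, these counts were 22.7 and 9.84 CPM. The mean on High was 24.2-fold above the same floor of 3 counts on Low, but it rested on High replicate 2 alone. The fitted log2 difference of Low and Medium from High was -5.10 with an SE of 3.49, and its edgeR adjusted p was 0.805. With both Low libraries at 0 counts, its size is not an estimate of a level. Without High replicate 2 this difference turned to 3.94, but High and Low were then both at 0 counts. That value rests on Medium replicate 2 alone.

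Atp2b4 had 0 counts in all 6 libraries. With the floor of 3 counts, its largest share of the PMCA counts would be 0.147%, in Low replicate 1. Atp2b1 accordingly held all of the PMCA counts of these 3 genes in 4 libraries, 96.0% in High replicate 2 and 98.6% in Medium replicate 2.

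The sequences before the start sites of an abundant and an uncounted PMCA gene and of the sparse beta 2 gene are shown to let these be compared directly. They are the 250 bases upstream of the RefSeq start, from assembly GRCr8, whereas the counts were made on rn6. Promoters were matched by symbol for 6 of the 7 pump genes, Atp1b1 being the exception. Capitals mark matches to a GC box (GGGCGG or its reverse complement CCGCCC) and to a TATA box (TATAAA or TTTATA). Both strands were searched, and no match to the GC box can overlap a match to the TATA box.
Atp2b1, chr7:35622211-35622460, plus strand: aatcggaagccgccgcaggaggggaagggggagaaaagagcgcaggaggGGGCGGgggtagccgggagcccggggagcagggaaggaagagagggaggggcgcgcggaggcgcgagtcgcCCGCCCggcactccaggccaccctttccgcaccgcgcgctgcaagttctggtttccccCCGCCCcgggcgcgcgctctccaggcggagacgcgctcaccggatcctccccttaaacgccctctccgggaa
Atp2b4, chr13:47758877-47759126, minus strand: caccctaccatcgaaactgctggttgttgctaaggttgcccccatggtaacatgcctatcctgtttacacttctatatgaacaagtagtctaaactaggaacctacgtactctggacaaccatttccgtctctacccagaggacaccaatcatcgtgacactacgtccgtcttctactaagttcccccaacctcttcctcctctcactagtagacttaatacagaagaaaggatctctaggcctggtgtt
Atp1b2, chr10:54823709-54823958, minus strand: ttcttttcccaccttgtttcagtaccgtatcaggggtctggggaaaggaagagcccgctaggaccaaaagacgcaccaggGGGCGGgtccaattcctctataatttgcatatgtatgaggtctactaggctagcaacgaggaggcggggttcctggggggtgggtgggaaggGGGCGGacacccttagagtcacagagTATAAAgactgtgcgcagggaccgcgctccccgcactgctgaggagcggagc
The Atp2b1 window held 3 GC boxes at 72.8% G and C, and the Atp2b4 window held 0 at 46.4%. The Atp1b2 window held 2 GC boxes and 1 TATA box at 58% G and C. Of the windows not printed, that of the abundant Atp1b3 held 6 GC boxes at 79.6% G and C. Those of the sparse Atp2a2 and Atp2b2 held 3 at 80% and 1 at 69.2%. None of these windows held a TATA box. Among 33469 rat promoters of this length the median was 51.2% G and C, 30.5% held a GC box and 12.9% a TATA box. A match describes letters in the window, and which start site these cells use was not measured.

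The endoplasmic reticulum pump Atp2a2 had 160 and 90 counts on High, 53 and 174 on Medium, and 75 and 0 on Low. Its levels were 33.0 and 21.5 CPM on High, 9.10 and 28.5 on Medium, and 10.9 and 0 on Low. Both Low libraries lay below both High libraries, while the Medium libraries overlapped with both films. How many of all rows had this order of Low and High was not counted. Atp2a2 is also among the 1408 rows on Low at 0 in 1 library and at 50 or more counts in the other. The Low-Medium average differed from High by -1.43 on the log2 scale, but its SE was 2.75 and its edgeR adjusted p 1.0. The interval ran from -7.55 to 4.70, so it held large differences in either direction. Low against High gave -2.32 (SE 3.45, edgeR adjusted p = 1.0).

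Across the pump genes, 0 of 6 passed an edgeR adjusted p of 0.05 for the Low-Medium average over High, where 10 of 7729 rows did (0.129%). Likewise 0 of 6 passed for Low against High (0.0518% of all rows), Medium against High (0.0129%) and Low against Medium (0%). With DESeq2, 1 of the 6 passed for the Low-Medium average, where 5.37% of all rows with an adjusted p did. Atp1b2 and Atp2b2 had no DESeq2 adjusted p for that average or for Low against High, so they could not pass there. Also with DESeq2, 0 passed for Low against High (4.39% of rows), Medium against High (4.22%) and Low against Medium (1.59%). With limma-voom 0 of 6 passed in these comparisons, beside 0.298, 0.207, 0.181 and 0% of all rows. At an unadjusted p under 0.05, 1 of 6 passed for the Low-Medium average over High, for Low against High and for Medium against High, in each case Atp1b1, against a background of 5.50, 4.27 and 4.04% of all rows. For Low against Medium 0 of 6 did, against 1.51%. In 1 gene, Atp1b1, the 4 Medium and Low libraries lay above both High libraries, as in 8.06% of all rows, and in 1 gene, Atp1b2, they lay below, as in 10.1%. The median log2 fold change of the 6 was -0.94 for the Low-Medium average over High, beside -0.12 over all rows, with 2 positive and 4 negative values. That median is the midpoint of Atp2a2, which had a Low library at 0 counts, and Atp1b3. It moved by over 1.5 times to -2.65 without Low replicate 1, -1.57 without Medium replicate 2, -0.61 without Medium replicate 1 and -0.23 without High replicate 2, and to -1.60 with limma-voom and -0.58 with library sizes alone.

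**Figure D3:**
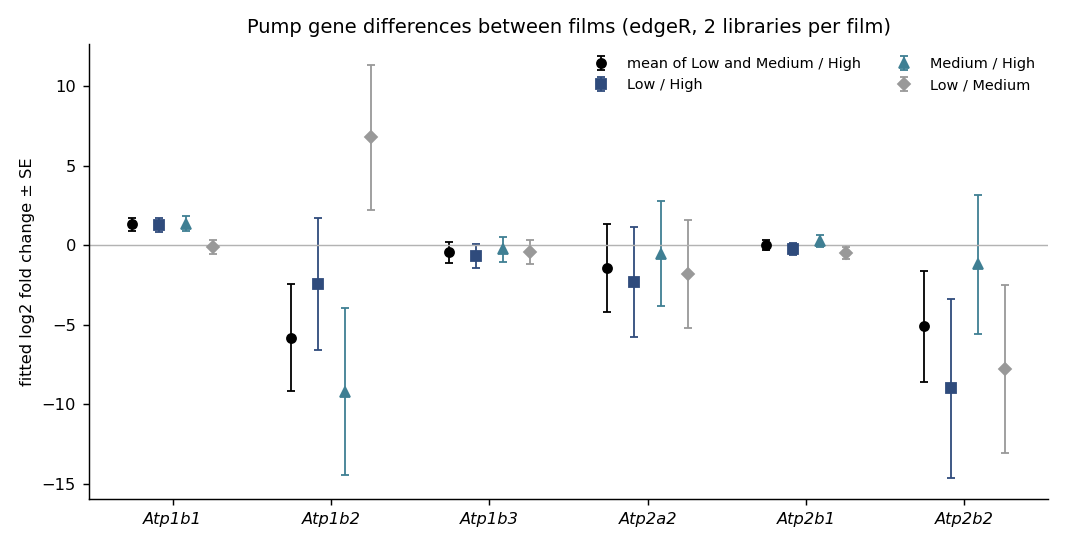
Points give the fitted log2 fold change of the 6 tested pump genes in 4 comparisons of films, with the SE as whiskers. Atp1b1 lies near 1.3 in the 3 comparisons with High and at -0.09 for Low against Medium, and the whiskers of Atp1b2, Atp2a2 and Atp2b2 are several log2 units long, each of these genes having libraries with 0 counts.

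The same 4 comparisons were read for 59 other genes of the pathways, given in lists for alpha subunits, FXYD and other partners of the Na,K-ATPase, other calcium pumps, SERCA and PMCA regulators, exchangers, calcium channels and cotransporters. These genes had 55 rows, of which 35 had a count and 28 were tested. In the edgeR fit 0 of 28 passed the adjusted threshold in any comparison. In fits added after seeing the data, DESeq2 called 3 of the 28 for the Low-Medium average over High (5.37% of all rows) and limma-voom called 2 (0.298%), Calm2 among them in both. DESeq2 called 2 for Low against High (4.39%), 3 for Medium against High (4.22%), with Calm2 in both and Calr in the latter, and 0 for Low against Medium (1.59%). Limma-voom called 1 for Low against High (0.207%), 1 for Medium against High (0.181%), the latter being Calm2, and 0 for Low against Medium. For the Low-Medium average over High, 2 rows were higher and 1 lower at an unadjusted p under 0.05 in edgeR. Over all rows, 5.50% passed that value in either direction. The median log2 fold change of the 28 was 0.05, beside -0.12 over all rows. The 4 Medium and Low libraries lay above both High libraries in 4 of the 28 rows, as in 8.06% of all rows. They lay below them in 2, as in 10.1% of all rows.

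Of the higher rows, 1 belongs to Calm2, which encodes calmodulin, the calcium sensor that activates PMCA pumps. The second of the rows named Calm2 had 5132 and 4061 counts on High, 12741 and 11577 on Medium, and 12595 and 10941 on Low, a log2 difference of Low and Medium from High of 0.93 (SE 0.20, edgeR adjusted p = 0.204). Every Medium and Low library lay above both High libraries in this row, although it did not pass the adjusted threshold of edgeR. The first Calm2 row gave -0.34 with an edgeR adjusted p of 1.0, and reads with several alignments were included in the counts, so the split between the rows is uncertain.

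Few partners of the Na,K-ATPase were counted. Of 7 FXYD genes, whose small proteins tune the Na,K-ATPase, 3 had a count in any library, of at most 3, and 0 were tested. Of the list of other beta subunits and Na,K-ATPase interacting proteins, 0 of 3 rows had a count. Of 5 other calcium ATPases 3 had counts and 2 were tested, with 0 past an unadjusted p of 0.05. The exchangers (3 rows tested), the calcium release and store-operated channels (7 tested) and the cotransporters and sodium-proton exchangers (5 tested) also had 0 past that value for the Low-Medium average over High.

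The levels of the abundant pump genes were compared across libraries. Over the 6 libraries, Pearson's r of log2(CPM + 1) was -0.05 between Atp1b1 and Atp1b3, 0.49 between Atp1b1 and Atp2b1, and 0.54 between Atp1b3 and Atp2b1. The rows most like Atp1b1 by this measure, among 3930 rows counted in all libraries, were Swi5 (r = 0.991), a DNA repair factor, and Nme7 (r = 0.985), a component of the gamma-tubulin ring complex. Those most like Atp1b3 were N4bp2l2 (0.978) and Acp2 (0.972), and those most like Atp2b1 were Ncdn (0.993) and Tmem230 (0.981). These are descriptions over 6 libraries that share their depth and film, chosen as the highest of many, with no test.

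**Figure D4:**
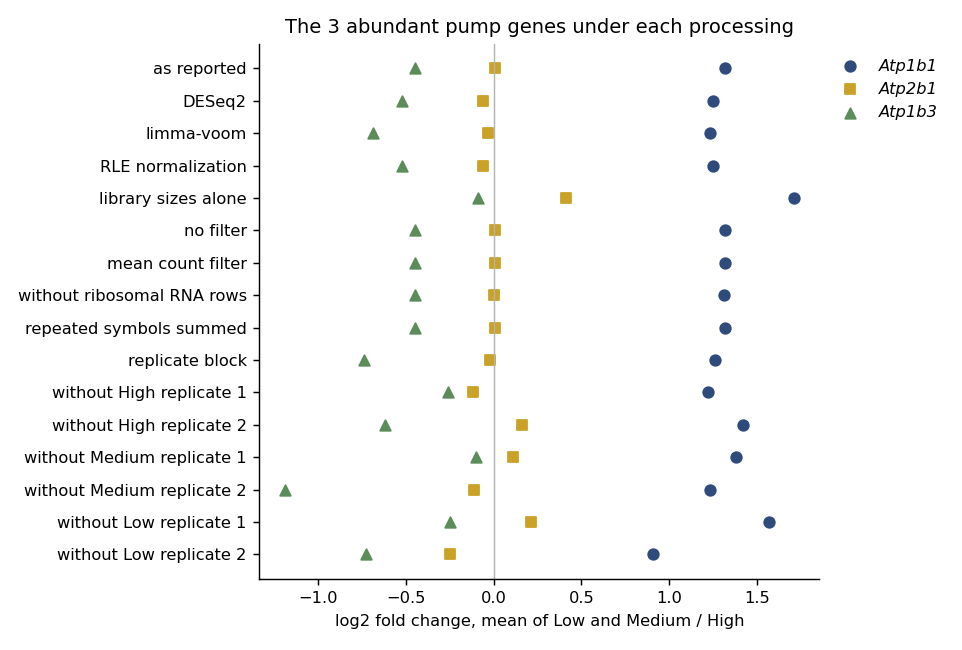
Points give the log2 fold change of Atp1b1, Atp2b1 and Atp1b3 for the Low-Medium average over High, on the x axis, under each way of processing on the y axis, with the value as reported in the top line. Atp1b1 stays between 0.91 and 1.71, Atp2b1 lies on both sides of 0, and Atp1b3 lies between -1.19 and -0.09.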

How the data were processed

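Neural stem/progenitor cells on 3 carbon films gave 6 libraries, 2 per film, grouped by the sample labels. The authors made QuantSeq 3′ libraries, aligned the reads with Bowtie2 and counted them on genes with Bedtools, including reads with several alignments. The deposited values are these raw counts, with a table for each library and no normalization. The submitters' processing notes name rn6 as the build, and tool versions and the annotation are not given in the sources used here. For RNA isolation the labels name Trizol and the methods a Ribospin kit. Strand use and removal of PCR duplicates are not stated, so overlapping genes and near-identical copies are uncertain. Of the 17048 rows, 167 repeat a symbol and were kept apart, and 9566 had a count.

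In R 4.3.3 with edgeR 4.0.16, rows were filtered with filterByExpr (7729 left), normalized with TMM and tested with the quasi-likelihood F test in 1 fit of the 3 film means, with Benjamini-Hochberg adjustment over all rows tested and a threshold of 0.05. The common dispersion was 2.04. An SE is the absolute log2 fold change divided by the square root of F. Alternatives used DESeq2 1.42.0, limma 3.58.1, other scalings, filters and row sets, the replicate number as a block, and leave-one-out fits. The code was tested on simulated data. Same-numbered replicates of different films did not deviate together (correlations 0.00655, 0.00342 and 0.00733), so numbers were not taken as pairs.

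The text names all 7 pump genes, pathway genes with an unadjusted p under 0.05 for the Low-Medium average over High or past the adjusted threshold in any comparison, and the 2 rows most correlated with each pump gene counted in all libraries. Marker genes at 0 are named as well. The pump genes and all lists were chosen with earlier results of these data known. Some pathway genes that this rule would name are not reported here.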

Additional observations from a re-analysis of the deposited data

How the results depend on the processing

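Of 375 alternative values of the pump genes' log2 fold changes, 351 kept their direction and their side of the threshold, 5 came to 0.00, 17 changed sign and 2 newly passed. Of those at 0.00, Atp2b2 without High replicate 2 (Low against High) or Medium replicate 2 (Low against Medium) and Atp1b2 without Low replicate 2 (Low against Medium) lost their only library with counts, and the others were Atp2b1. For the Low-Medium average over High, DESeq2 called 1 pump gene where edgeR called 0, namely Atp1b1 (1.25, adjusted p 0.0263). Leaving out 1 library gave 0 to 1 called, again Atp1b1, without Low replicate 1 (1.57, adjusted p 0.0297). Its log2 fold change ranged from 0.91 to 1.71 and its adjusted p from 0.0263 to 0.776 over the alternatives. Scaling by library sizes alone, which gave the 1.71, moved the median of all rows by 0.38 for this comparison.

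The sign changes were all in values that did not pass the adjusted threshold. For Atp2b1, at 0.01 for the Low-Medium average over High, the value was -0.06 with DESeq2 and with RLE normalization, -0.03 with limma-voom, -0.02 with the replicate block, and -0.25 to 0.21 with 1 library left out (-0.12 without High replicate 1, -0.11 without Medium replicate 2, -0.25 without Low replicate 2). Its Low against High value of -0.22 became 0.19 with library sizes alone and 0.17 without Low replicate 1, and was -0.76 without Low replicate 2. For Medium against High, Atp1b3 turned to 0.08 with library sizes alone and to 0.46 without Medium replicate 1, and Atp2a2 to 0.07 without that library, while without Medium replicate 2 they were -1.73 and -1.61. For Low against Medium, Atp1b1 turned to 0.08 without Medium replicate 2 and 0.43 without Low replicate 1, with -0.90 without Low replicate 2, and Atp1b3 to 1.07 without Medium replicate 2, with -1.12 without Medium replicate 1. Without High replicate 2, Atp2b2 turned to 3.94 for the Low-Medium average and to 7.87 for Medium against High, and both were -8.99 without Medium replicate 2. In these fits the film left with 1 library had 0 counts of Atp2b2, so the sizes are not estimates of a level. Beyond what fewer libraries bring by construction, the cause was not tested.

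The count of all rows called moved by more than the pump genes did. For the Low-Medium average over High it was 10 with edgeR, 375 with DESeq2, 23 with limma-voom, 68 with no filter, 56 with a filter on the mean count, 57 with the replicate block, and 34 to 242 with 1 library left out. Across all alternatives it ran from 0 to 300 for Low against High, from 0 to 307 for Medium against High and from 0 to 194 for Low against Medium. The replicate block gave 1.26 for Atp1b1 with an adjusted p of 0.216 and called 0 pump genes. The films had 2 libraries each with a biological coefficient of variation of 1.43, and the effect of depth on the calls was not tested.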
